A study of Mus musculus with 15 samples.

Results

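Sln, Espn, Grb10, Lrrc15, Ddit4l, Dlx1, Gdpd3, Clic6, Pde4c and Smagp are 10 of the 19057 mouse genes named on an Illumina bead array. They were chosen for high signal on arrays with Bcl2 or Bcl2 rescue and low or background signal on arrays without Bcl2. The choice used the values of these arrays, DN3 arrays included, so those values are a description here and carry no test. It states no numeric threshold, so no gene can be placed just inside or outside one. The working name of the set, genes newly switched on with Bcl2, was not borne out for all 10 genes. Gdpd3 was higher on Bcl2 control arrays than on control arrays by a fitted log2 difference of 4.47, and Pde4c by 1.98 with its brighter probe. Sln, Clic6 and Ddit4l were below background on all control arrays. They were at least 3.41-fold, 4.94-fold and 1.15-fold higher on Bcl2 control arrays. Lrrc15 differed there by 0.60. Grb10 and Dlx1 were within 0.22 of their control level on Bcl2 control arrays, and Espn and Smagp were below background in both groups by their brightest probe. These last 4 genes were high on Bcl2-rescued arrays. Grb10 was above background on all 12 pro-B arrays, so its signal was not new.

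The series holds 15 arrays in 5 groups of 3. The first group was pro-B cells labelled as Bcl11a-deficient and rescued with Bcl2 (Bcl2-rescued), and the second was wild-type pro-B cells overexpressing Bcl2 (Bcl2 control). The third was pro-B cells labelled as Bcl11a-deficient without Bcl2 (labelled deficient), the fourth was DN3 cells labelled Bcl11bCKO/CKO, and the fifth was wild-type pro-B cells (control). The pro-B mice had a mixed C57BL/6 and 129S5 background and were 6 to 8 weeks old. Their marrow cells were grown for 10 days with IL-7, Flt3L and SCF at 50 ng/ml each, so all 4 pro-B groups share culture and cytokines. DN3 mice were of the same age, of strain C57B7 by their label, with the tissue given as lymphocytes. The DN3 labels also carry the pro-B growth text, with 10 days and 50 ng/ml. Array titles carry +OHT for both groups labelled deficient and -OHT for both of their controls, so OHT and the deletion cannot be told apart. The labels do not name the promoter behind Bcl2, the Cre line or the number of mice per culture. The design text mentions 3 culture batches, and nothing in the labels says that they came from separate mice, so p-values measure the spread between these samples only.

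Bcl11a is a zinc-finger repressor of transcription that B-lymphoid progenitors need, and it is best known for silencing fetal globin genes in red cells. Bcl2 sits on mitochondria and blocks apoptosis, so it can keep alive cells that would otherwise be lost. Pro-B cells are marrow progenitors that rearrange their immunoglobulin heavy-chain genes under IL-7. DN3 cells are thymic progenitors at the stage of T-cell receptor beta rearrangement. None of the 10 genes is a classical B-lineage gene. Grb10, Ddit4l and Pde4c encode brakes on signalling, and Sln, Clic6 and Gdpd3 act in calcium pumping, chloride transport and lipid turnover. Espn, Lrrc15 and Smagp belong to the cytoskeleton or the cell surface, and Dlx1 is a homeobox transcription factor.

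The array labels were checked against Bcl11a itself. Bcl11a probe ILMN_2712044 read 11.34, 11.65 and 11.48 (normalised log2 intensity) on labelled deficient arrays, against 9.57, 9.30 and 10.00 on control arrays. That difference, 1.87 ± 0.20 (log2, SE, n = 3 each, limma adjusted p = 0.0072), goes against the label. The same probe read 9.87, 10.26 and 10.30 on Bcl2-rescued arrays, against 10.84, 11.02 and 10.95 on Bcl2 control arrays, a difference of -0.79 ± 0.20 (limma adjusted p = 0.0172). The second Bcl11a probe, ILMN_1257463, differed by -0.25 ± 0.44 (limma adjusted p = 0.875) and -0.92 ± 0.44 (limma adjusted p = 0.175) in these comparisons. Whether either probe lies within the deleted part is not known here. No mouse Bcl2 probe passed the test between pro-B arrays with and without Bcl2, and it is not known whether the added Bcl2 carries the probe sequences. Of 10 pro-B marker genes with a probe, 9 were above background on all 3 arrays of each pro-B group, and all 8 early T-cell markers with a probe were above background on the DN3 arrays. Control replicate 3 was dim, with a mean signal of 187 against 445 to 769 on the other pro-B arrays.

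Promoter sequence is shown for the 4 genes in which the letters TGACCA occurred, since human BCL11A is known to bind TGACCA at the fetal globin promoters. RefSeq (GRCm38.p6) gave promoters for 8 of the 10 genes, 12 promoters in all, each 300 bases long. Sln and Clic6 had no entry. The 250 bases before the start are printed 5′ to 3′ on the gene's strand. Capitals mark TGACCA and GGGCGG on either strand. GGGCGG is the core of a GC box, which Sp1 and related factors bind.
Ddit4l, chr3:137623422-137623671, plus strand: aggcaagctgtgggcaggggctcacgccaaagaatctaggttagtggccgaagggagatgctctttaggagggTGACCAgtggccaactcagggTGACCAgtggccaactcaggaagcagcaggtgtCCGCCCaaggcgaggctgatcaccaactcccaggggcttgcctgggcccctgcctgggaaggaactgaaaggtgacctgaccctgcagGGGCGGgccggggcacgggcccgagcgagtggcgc
Pde4c, chr8:70723814-70724063, plus strand: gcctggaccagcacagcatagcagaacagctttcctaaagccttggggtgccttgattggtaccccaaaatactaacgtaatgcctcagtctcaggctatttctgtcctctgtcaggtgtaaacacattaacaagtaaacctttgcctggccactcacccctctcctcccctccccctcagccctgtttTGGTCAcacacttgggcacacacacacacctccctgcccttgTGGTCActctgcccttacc
Gdpd3, chr7:126766164-126766413, plus strand: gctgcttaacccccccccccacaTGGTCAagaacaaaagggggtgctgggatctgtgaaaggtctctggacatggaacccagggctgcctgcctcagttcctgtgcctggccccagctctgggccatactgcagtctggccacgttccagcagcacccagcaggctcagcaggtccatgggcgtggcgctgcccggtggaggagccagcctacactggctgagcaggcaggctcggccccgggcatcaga
Grb10, chr11:12027972-12028221, minus strand, the second of its promoters: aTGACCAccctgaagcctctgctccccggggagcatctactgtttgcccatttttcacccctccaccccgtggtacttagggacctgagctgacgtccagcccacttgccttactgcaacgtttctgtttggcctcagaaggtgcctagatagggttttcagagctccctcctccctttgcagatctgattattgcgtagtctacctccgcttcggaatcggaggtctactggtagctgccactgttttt
TGACCA stood at -177 and -156 from the start in Ddit4l, at -61 and -19 in Pde4c, at -227 in Gdpd3 and at -249 in Grb10. The repeat in Ddit4l was on the gene's own strand, and the matches in Pde4c and Gdpd3 were on the opposite strand. Counted over both strands, TGACCA was found in 4 of the 12 promoters, and in 13.6% of all 32851 promoters of the same length. GGGCGG was found in 7 of 12 promoters against 35.7% of all, TATAAA in 1 of 12 against 13.6%, and CACGTG in 0 of 12 against 7.2%. No 2 different motifs overlapped. The first promoter of Grb10 had a GC content of 80.0% and 45 CpGs, against medians of 52.7% and 7 over all promoters. A match is a description of letters and not of binding.

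By its brightest probe, each of the 10 genes was highest on Bcl2-rescued arrays. The array carries 19 probes for them, of which 13, with at least 1 for each gene, were above background (detection p under 0.05) on 3 or more pro-B arrays and entered the fit of 17719 probes. Over the 3 Bcl2-rescued arrays, 12, 14 and 14 of the 19 probes were above background. The counts were 9, 7 and 9 on Bcl2 control arrays, 7, 7 and 6 on labelled deficient arrays, 3, 1 and 4 on DN3 arrays, and 3, 5 and 1 on control arrays. The 6 probes left out were Sln ILMN_2662878, Espn ILMN_2731578, ILMN_3045869 and ILMN_3076219, Grb10 ILMN_1257352 and Smagp ILMN_3053655. In bulk RNA, fewer cells of a type and less RNA per cell cannot be told apart.

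**Figure D1:**
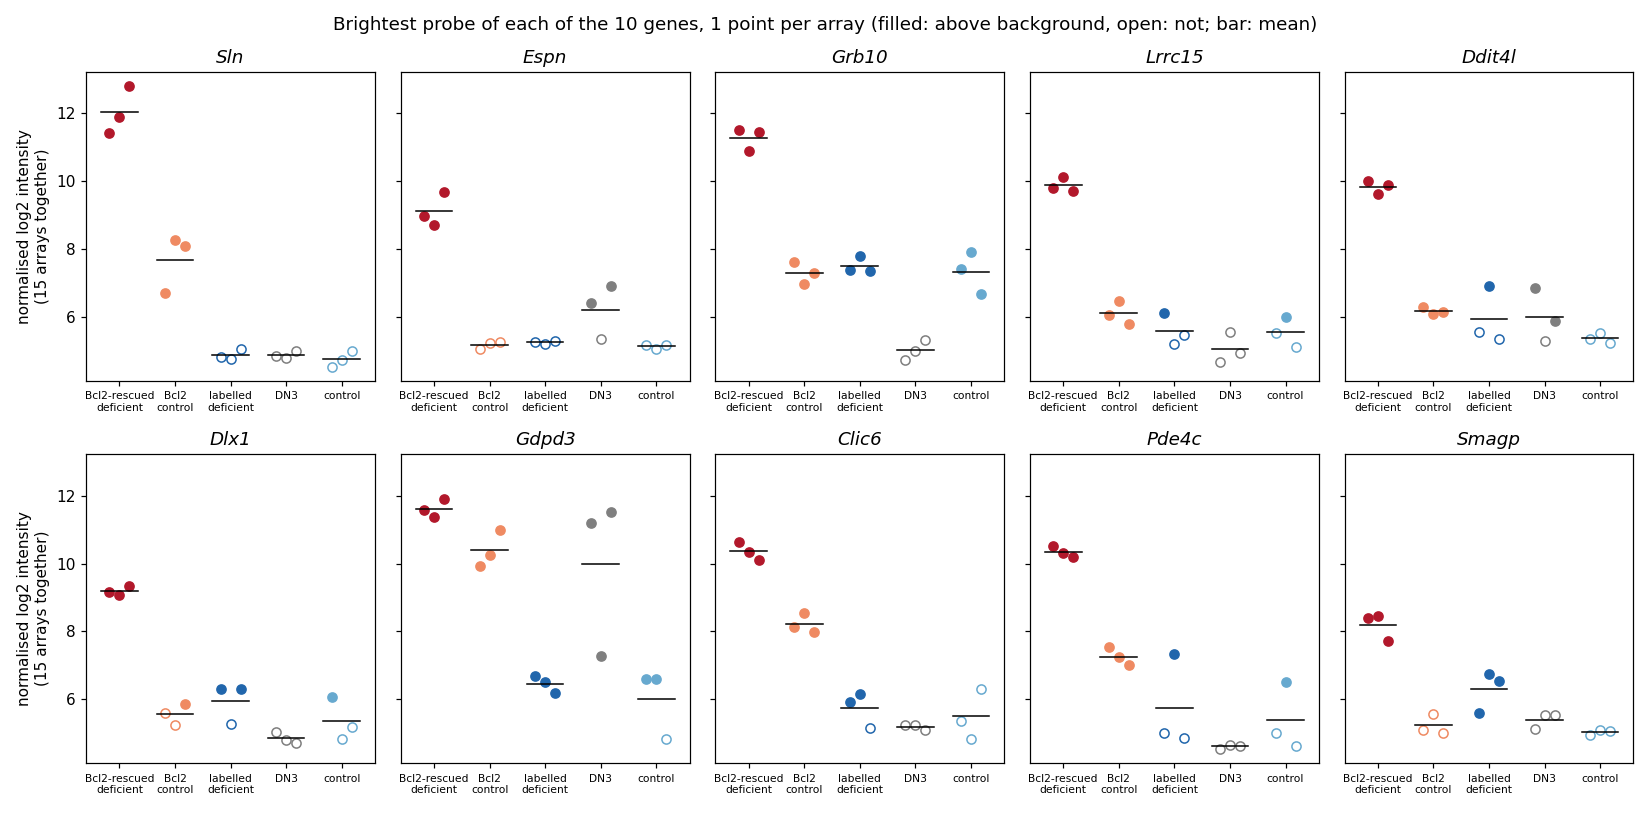
Normalised log2 intensity (vertical axis, 15 arrays normalised together) of the brightest probe of each gene, 1 point per array, in the groups Bcl2-rescued, Bcl2 control, labelled deficient, DN3 and control from left to right. Filled points are above background, open points are not, and bars are means of 3 arrays. All 3 Bcl2-rescued points lie above every other pro-B point in each panel, and Bcl2 control points stand clear of control points for Sln, Gdpd3, Clic6, Pde4c and Ddit4l.

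The brakes on signalling come first. Grb10 encodes an adaptor that binds the insulin and IGF1 receptors and dampens their signal. Its probe ILMN_2518412 gave scanner signals (linear intensity) of 3943, 2544 and 3023 on Bcl2-rescued arrays, 266, 143 and 123.5 on Bcl2 control arrays, 223.5, 277 and 174 on labelled deficient arrays, and 219.5, 247 and 27.9 on control arrays. The Bcl2-rescued arrays stood apart and the other pro-B groups overlapped one another, all above background. On the normalised log2 scale Grb10 was 4.01 ± 0.31 (SE, n = 3 each) above the Bcl2 control arrays and 3.79 ± 0.31 above the labelled deficient arrays. Bcl2 control arrays differed from control arrays by -0.04 ± 0.31. The second Grb10 probe, ILMN_2546546, did not show this pattern. It gave 27.9, 45.7 and 49.3 on Bcl2-rescued arrays, 49.2, 21.7 and 30.6 on Bcl2 control arrays, 75.4, 42.3 and 44.5 on labelled deficient arrays, and 26.7, 53.6 and 14.3 on control arrays. All 4 groups overlapped there, with a log2 difference of 0.09 ± 0.25 between Bcl2-rescued and Bcl2 control arrays. The third probe, ILMN_1257352, was above background on no array, so the Grb10 result rests on 1 of 3 probes.

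Ddit4l, also called Redd2, encodes an inhibitor of the growth kinase complex mTORC1. Its probe ILMN_2695819 gave 1430.1, 1055 and 1018 on Bcl2-rescued arrays, 89.6, 64.8 and 47.2 on Bcl2 control arrays, 43, 139.6 and 20.2 on labelled deficient arrays, and 30.1, 34.3 and 7.6 on control arrays. Only the Bcl2-rescued arrays stood clear of the labelled deficient arrays, whose replicate 2 was brighter than every Bcl2 control array. The log2 difference of Ddit4l was 3.73 ± 0.34 against Bcl2 control and 3.97 ± 0.34 against labelled deficient arrays. All 3 Bcl2 control arrays were above background and no control array was, so that fold is a bound of at least 1.15-fold, with a fitted log2 difference of 0.84 ± 0.34.

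Pde4c encodes a phosphodiesterase that breaks down cyclic AMP, the messenger of many hormone receptors. Probe ILMN_2724315 gave 2024, 1701 and 1273 on Bcl2-rescued arrays, 249.8, 181 and 97.4 on Bcl2 control arrays, 6.1, 197 and -5.7 on labelled deficient arrays, and 4.5, 80.5 and -20 on control arrays. Every Bcl2 control array was above background and above every control array, while replicate 2 of the labelled deficient arrays lay among the Bcl2 control arrays. Pde4c was 3.11 ± 0.64 (log2) higher on Bcl2-rescued than on Bcl2 control arrays and 4.71 ± 0.64 higher than on labelled deficient arrays. The difference of Bcl2 control from control arrays was 1.98 ± 0.64, and it ran from 1.26 to 2.64 over 25 alternative fits. It was 2.58 ± 0.61 without control replicate 2, the only control array above background. The second Pde4c probe, ILMN_1255758, gave 237, 155 and 170.4 on Bcl2-rescued arrays and was above background on no other array. Its level there was at least 3.27-fold the Bcl2 control level and at least 3.29-fold the labelled deficient level.

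Of the transport and lipid genes, Sln encodes sarcolipin, a small membrane peptide that inhibits the SERCA calcium pumps of muscle. Its probe ILMN_2918875 gave 3794, 4903 and 7255 on Bcl2-rescued arrays, 129, 392 and 223 on Bcl2 control arrays, -10.9, -18.5 and 5 on labelled deficient arrays, and -57.2, -19 and -0.2 on control arrays. These fell into 3 separate levels, with Bcl2-rescued arrays on top, Bcl2 control arrays next and both groups without Bcl2 below background. Sln was at least 91.6-fold higher on Bcl2-rescued than on labelled deficient arrays and at least 3.41-fold higher on Bcl2 control than on control arrays. Between Bcl2-rescued and Bcl2 control arrays, both above background, the log2 difference was 4.38 ± 0.42, the highest of all 17719 probes. The other Sln probe, ILMN_2662878, was below background on all 15 arrays, so a single probe carries the Sln values.

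Clic6 belongs to the chloride intracellular channel family. Its only probe, ILMN_2667635, gave 2229, 1727 and 1198 on Bcl2-rescued arrays, 389.9, 481 and 204 on Bcl2 control arrays, 64.5, 74.5 and 9.2 on labelled deficient arrays, and 30.3, -8.7 and 23.5 on control arrays. Bcl2-rescued and Bcl2 control arrays were separate from each other and from both groups without Bcl2, which overlapped. The log2 difference was 2.16 ± 0.38 between Bcl2-rescued and Bcl2 control arrays. Bcl2 control arrays were at least 4.94-fold above control arrays, none of which was above background.

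Gdpd3 encodes an enzyme of the glycerophosphodiester phosphodiesterase family that releases lysophosphatidic acid from lysophospholipids. Probe ILMN_2893879 gave 4118, 3513 and 4081 on Bcl2-rescued arrays, 1423, 1599 and 1745 on Bcl2 control arrays, 127, 99.3 and 64.2 on labelled deficient arrays, and 111, 86 and -7.5 on control arrays. For Gdpd3 no array that carries Bcl2 read below 1423 and no pro-B array without it read above 127. Its signal was not new with Bcl2, since 3 labelled deficient and 2 control arrays were above background. Its log2 difference was 4.47 ± 0.45 between Bcl2 control and control arrays, 5.21 ± 0.45 between Bcl2-rescued and labelled deficient arrays, and 1.23 ± 0.45 between Bcl2-rescued and Bcl2 control arrays.

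Among the cytoskeletal and surface genes, Espn encodes espin, which bundles actin in hair-cell stereocilia and microvilli. Probe ILMN_3107059 gave 701, 544.5 and 886 on Bcl2-rescued arrays, 8.6, 14.9 and 13 on Bcl2 control arrays, 24.8, 19.8 and 17 on labelled deficient arrays, and 18.8, 8.1 and 5.6 on control arrays. Espn was above background on the Bcl2-rescued arrays and on none of the 9 other pro-B arrays. It was at least 11.9-fold above Bcl2 control arrays and at least 12.01-fold above labelled deficient arrays. A second probe, ILMN_2731578, was above background on Bcl2-rescued replicates 2 and 3 alone among the pro-B arrays, at 97.8 and 120.1. Probe ILMN_3076219 was above background on Bcl2 control replicate 1 alone, at 70.7, and ILMN_3045869 on no array.

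Lrrc15 encodes a leucine-rich-repeat membrane protein known from activated fibroblasts. Its probe ILMN_2756421 gave 1251, 1494.5 and 904 on Bcl2-rescued arrays, 74.1, 95.2 and 33.4 on Bcl2 control arrays, 77.7, 19.9 and 25 on labelled deficient arrays, and 40.7, 53.9 and 3.7 on control arrays. The Bcl2-rescued arrays stood apart and the other 3 pro-B groups overlapped, although all 3 Bcl2 control arrays passed detection. Lrrc15 was 3.83 ± 0.31 (log2) above Bcl2 control arrays and 4.38 ± 0.31 above labelled deficient arrays, while Bcl2 control arrays differed from control arrays by 0.60 ± 0.31. The summed normalised level of 10 stromal markers was 138 to 161 on Bcl2-rescued arrays and 157 to 187 on Bcl2 control arrays. No stromal marker was above background on all 3 arrays of either group, and Col1a1, Col3a1, Dcn, Fap and Pdgfra were above background on no array of either.

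Smagp encodes a small glycoprotein of epithelial cell contacts. Probe ILMN_1247198 gave 475.5, 457 and 223 on Bcl2-rescued arrays, 11.3, 33.6 and 1.8 on Bcl2 control arrays, 45.1, 120.4 and 89.3 on labelled deficient arrays, and -0.6, 11.6 and 2.2 on control arrays. Here the groups ran in another order, with labelled deficient arrays second, all 3 above background, and neither control group above background. Smagp was at least 6.26-fold higher on Bcl2-rescued than on Bcl2 control arrays, and the log2 difference from labelled deficient arrays was 1.96 ± 0.31. The labelled deficient arrays were at least 1.25-fold above the control arrays. Probe ILMN_3130403 also had labelled deficient arrays second, though with replicate 1 not above background, with 256, 246.5 and 123 on Bcl2-rescued arrays, 24.7, -5.7 and 11.2 on Bcl2 control arrays, 39, 95.5 and 37.4 on labelled deficient arrays, and 16.2, 21.7 and 12.2 on control arrays. The third probe, ILMN_3053655, was above background on no array.

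**Figure D2:**
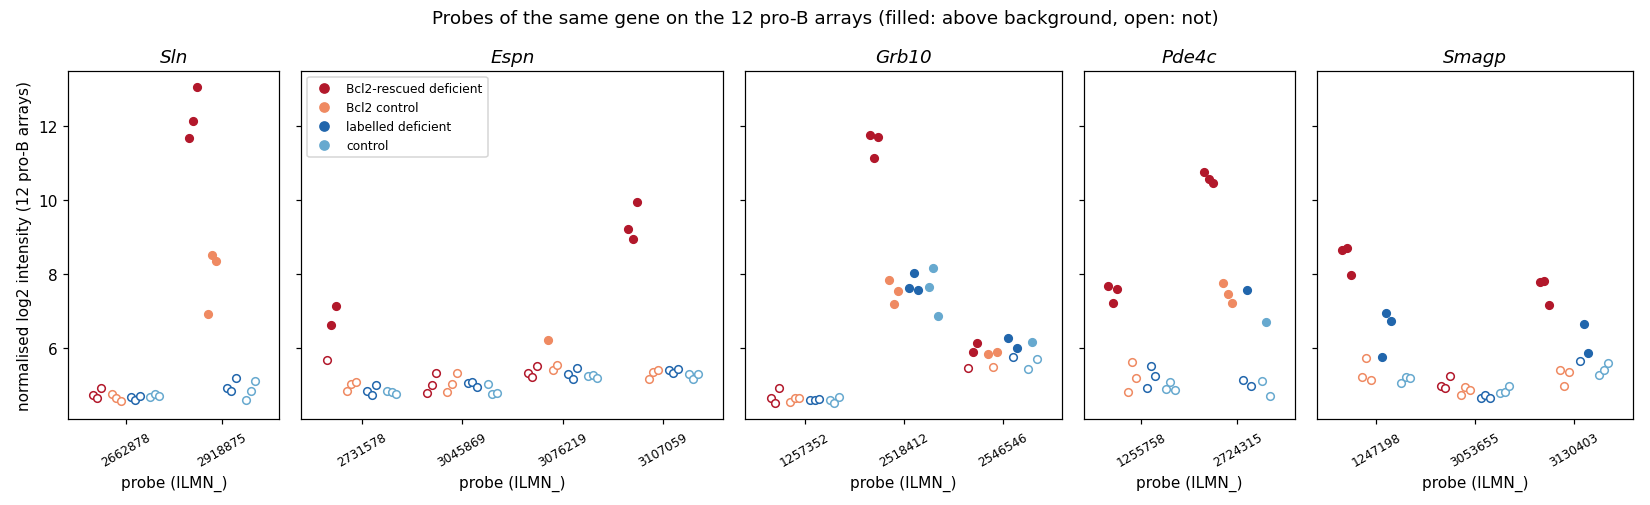
Normalised log2 intensity (vertical axis, 12 pro-B arrays) of every probe of Sln, Espn, Grb10, Pde4c and Smagp, with probe numbers on the horizontal axis, 1 point per array, coloured by group and filled where above background. Both kept probes of Pde4c and of Smagp are highest on Bcl2-rescued arrays, while the second kept Grb10 probe overlaps between all 4 groups.

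Dlx1, a homeobox factor of forebrain interneurons, was the only transcription factor of the set. Its probe ILMN_2800505 gave 791, 707 and 701 on Bcl2-rescued arrays, 44.8, 16 and 36 on Bcl2 control arrays, 92.5, 23.1 and 73 on labelled deficient arrays, and 71.7, -8.5 and 5.9 on control arrays. The Bcl2-rescued arrays differed little among themselves and the other 3 groups overlapped. The log2 difference of Dlx1 was 3.71 ± 0.36 against Bcl2 control and 3.30 ± 0.36 against labelled deficient arrays, with 0.22 ± 0.36 between Bcl2 control and control arrays. Gad1, Gad2, Snap25, Syt1 and Tubb3, 5 neural markers, were above background on no pro-B array.

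Set side by side, the 13 kept probes counted as follows at a limma adjusted p under 0.05 over all probes. Because the genes were chosen on these arrays, the counts are given with those of all probes and nothing is read from the gap. Between Bcl2-rescued and labelled deficient arrays, 12 of 13 were higher, where 35.1% of all probes were called, 18.3% higher and 16.8% lower. Between Bcl2 control and control arrays, 3 of 13 were higher (Sln, Gdpd3 and Clic6), where 6.91% were called, 4.15% higher and 2.75% lower. Between Bcl2-rescued and Bcl2 control arrays, 11 of 13 were higher, all but Gdpd3 and the second Grb10 probe, or 12, Gdpd3 included, with the replicate number as a block within each background, where 20.3% were called, 10.3% higher and 10.1% lower. Between labelled deficient and control arrays none of the 13 was called by limma, 2 had an unadjusted p under 0.05, and 0.0226% of all probes were called, 0.00564% higher and 0.0169% lower. These comparisons share arrays pairwise, so they are not separate pieces of evidence. The median log2 difference of the 13 probes was 3.97, 0.26, 3.11 and 0.28 in that order, against 0.03, 0.06, 0.02 and 0.05 over all probes. Counting probes whose first group lay wholly above the second, the 13 gave 12, 5, 12 and 3, where 31.1%, 13.4%, 25.8% and 4.37% of all probes did.

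**Figure D3:**
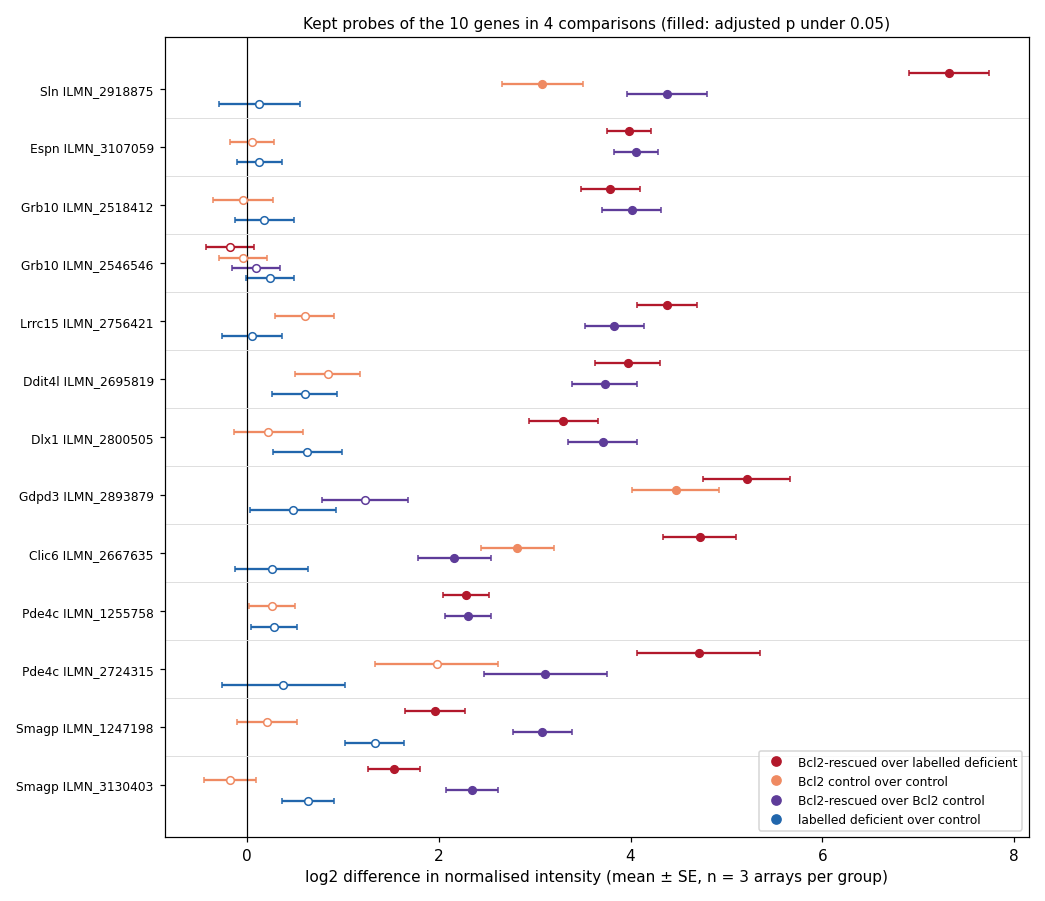
Log2 difference in normalised intensity (horizontal axis, mean ± SE, n = 3 arrays per group) of the 13 kept probes in 4 comparisons, filled where the adjusted p was under 0.05. Bcl2-rescued over Bcl2 control lies between 2.16 and 4.38 for every probe but Gdpd3 (1.23) and the second Grb10 probe (0.09), while Bcl2 control over control is 2.82 or more for Sln, Gdpd3 and Clic6 and 1.98 or less for the others.

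The difference between Bcl2-rescued and Bcl2 control arrays was set against that between labelled deficient and control arrays as an interaction of the fit. It was higher for 9 of the 13 probes, where 7.9% of all probes were called, 3.19% higher and 4.71% lower. The probes outside the 9 were those of Gdpd3 and Clic6, Pde4c ILMN_2724315 and the second Grb10 probe. With the replicate number as a block within each background it was higher for 10, Pde4c ILMN_2724315 included. Both slides that carried pro-B arrays held all 4 groups. On slide 1 alone the log2 difference between Bcl2-rescued and Bcl2 control arrays was 3.77 for Ddit4l, 3.64 for Dlx1 and 1.64 for Gdpd3. Between labelled deficient and control arrays of slide 2 alone it was 1.55 for Smagp ILMN_1247198, 1.43 for Gdpd3 and 1.19 for Dlx1. Clic6 went the other way there, at -1.23, with both arrays below background, so these have no order. Smagp, Gdpd3 and Dlx1 were below background on that control array, the dim replicate 3, so their differences are not measured sizes. Slide 1 held 1 array each of Bcl2-rescued and Bcl2 control and slide 2 held 1 array each of labelled deficient and control. These differences therefore rest on lone arrays, which the fits assumed to vary like the rest. Within the set, the correlation of each gene's log2 profile over the 12 pro-B arrays with the mean of the others ran from 0.823 for Gdpd3 to 0.971 for Ddit4l. This is a description over arrays that share the 4 groups.

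DN3 arrays carry no added Bcl2, and the choice of the genes asked for low signal on such arrays, so their member values are a description too. The kept probes of mouse Bcl2 itself were higher on DN3 than on control arrays, by 2.94 to 3.24 (log2, limma adjusted p at most 0.000336). The part of Bcl2 in the DN3 values of the members was not tested. The DN3 arrays differ from control arrays in slide, tissue, strain, genotype and background subtraction, which cannot be told apart from cell type. The comparison called 43% of 18843 probes, 19.8% higher and 23.2% lower, and 3 of the 13 member probes, from which nothing is read. The median of all probes in it was -0.10 (log2), and -1.88 with DN3 and pro-B arrays normalised apart. Gdpd3 gave scanner signals of 535, 84.7 and 545 on DN3 arrays, all above background, against 111, 86 and -7.5 on control arrays. The DN3 signals still include background, as those of the pro-B arrays do not. Its log2 difference was 4.0 ± 0.83, and replicate 2 of DN3 lay far below the other two. Normalised apart, the Gdpd3 difference was 1.64. Espn gave 75, 61.4 and 76.3 on DN3 arrays, above background on replicates 1 and 3, and was at least 1.18-fold above the control arrays (log2 1.08 ± 0.32). The Espn difference was 0.98 without DN3 replicate 1, 0.74 without replicate 3 and -0.35 normalised apart, where it still lay above the median of all probes. Grb10 gave 53.4, 56.4 and 61.6 on DN3 arrays, none above background, and was at least 2.97-fold lower than on control arrays (log2 -2.32 ± 0.30). Of the other members, Ddit4l was above background on 2 DN3 arrays, Smagp on 1 with probe ILMN_3130403, and Sln, Lrrc15, Dlx1, Clic6 and Pde4c on none. The DN3 arrays lay wholly above control arrays for 3 of the 13 probes, where 21% of all probes did.

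Markers of other cell types were summed over the normalised levels of each list. Muscle markers, relevant to Sln, summed to 264 to 288 on Bcl2-rescued arrays and 419 to 515 on Bcl2 control arrays, with 567 to 599 on labelled deficient and 595 to 661 on control arrays. Of 11 with a probe, 1 was above background on all 3 Bcl2-rescued arrays (Tnni2). Tnni2 and Tnnt1 were above background on all 3 arrays of each other pro-B group. Acta1, Ckm, Myh1, Myod1, Tnnc2 and Tnnt3 were above background on no pro-B array. Epithelial markers, relevant to Smagp, summed to 146 to 205 on Bcl2-rescued arrays and 158 to 191 on Bcl2 control arrays. The sums were 155.8 to 174.5 on labelled deficient and 161 to 191.9 on control arrays. Cldn7 and Krt8 were above background on all 3 Bcl2-rescued arrays. Krt8 was also above it on all 3 Bcl2 control and all 3 control arrays, and Cldn7 on all 3 labelled deficient arrays. Epcam, Krt18 and Krt19 were above it on no pro-B array. Early T-cell markers summed to 91480 to 95600 on DN3 arrays. Among the pro-B groups they were highest on Bcl2-rescued arrays, with sums of 728 to 874, and were not raised on Bcl2 control arrays. Their sums were 282 to 346 on Bcl2 control arrays, 273 to 372 on labelled deficient arrays and 336 to 464 on control arrays. Il2ra and Notch1 were the 2 of 8 above background on all 3 Bcl2-rescued arrays, and Cd3d, Cd3e, Cd3g, Gata3, Ptcra and Thy1 were above it on none of them. Il2ra and Notch1 were also above background on all 3 Bcl2 control arrays, and Notch1 on all 3 arrays of every group. Dendritic markers summed to 146 to 205 on Bcl2-rescued arrays, 96.9 to 118 on Bcl2 control arrays, 93.7 to 124 on labelled deficient arrays and 92.6 to 156 on control arrays, with Zbtb46 the 1 of 6 above background on all 3 Bcl2-rescued arrays. Myeloid markers moved with Bcl2. They summed to 1523 to 3221 on Bcl2-rescued and 331 to 524 on Bcl2 control arrays, against 8221 to 14170 on labelled deficient and 8199 to 15260 on control arrays. Of 10 with a probe, 4 and 3 were above background on all 3 arrays with Bcl2, and 7 and 7 on those without. The part of these cell types in the values of the 10 genes was not tested.

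Partners and family members of the 10 genes were then read from a list of 57 genes, of which 33 genes with 55 probes passed the background filter. Of those probes, 17 rose and 11 fell on Bcl2-rescued against labelled deficient arrays, and 11 rose and 4 fell on Bcl2-rescued against Bcl2 control arrays. That is 50.9% and 27.3% of the probes, beside 35.1% and 20.3% of all probes called. On Bcl2 control against control arrays 7 rose and 1 fell, and on labelled deficient against control arrays limma called 0. The shares called there were 14.5% and 0% of the partner probes, beside 6.91% and 0.0226% of all probes. The medians of the 55 probes in these comparisons were 0.14, 0.21, 0.14 and 0.11 (log2), against 0.03, 0.02, 0.06 and 0.05 over all probes.

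Around Grb10, both receptors it binds rose. Insr, the insulin receptor, was 1.03 ± 0.18 (log2, limma adjusted p = 0.00179) higher on Bcl2-rescued than on Bcl2 control arrays, at means of 10.46 and 9.43, and 1.35 ± 0.18 (limma adjusted p = 0.000143) higher than on labelled deficient arrays. Bcl2 control and control arrays differed in Insr by 0.21 ± 0.18 (limma adjusted p = 0.541). Igf1r probe ILMN_1249824, for the IGF1 receptor, rose by 1.23 ± 0.22 (limma adjusted p = 0.00227) in the first of these comparisons and by 1.82 ± 0.22 (limma adjusted p = 8.32e-05) in the second. A second Igf1r probe, ILMN_1239663, rose by 0.88 ± 0.26 (limma adjusted p = 0.0318) and 1.19 ± 0.26 (limma adjusted p = 0.00403), while ILMN_1232222 and ILMN_2482214 were not called. Grb7, an adaptor of the same family as Grb10, was lower on Bcl2-rescued than on labelled deficient arrays (-2.04 ± 0.47, limma adjusted p = 0.0055). It averaged 8.23 on Bcl2 control against 11.72 on control arrays, a difference of -3.49 ± 0.47 (limma adjusted p = 0.00114), and differed by 0.30 ± 0.47 (limma adjusted p = 0.73) between Bcl2-rescued and Bcl2 control arrays.

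In the mTORC1 branch around Ddit4l, 9 genes with 16 probes were measured. Of these probes 8 rose and 1 fell on Bcl2-rescued against labelled deficient arrays, 4 rose and 0 fell on Bcl2 control against control arrays, and 2 rose and 1 fell on Bcl2-rescued against Bcl2 control arrays, where 35.1%, 6.91% and 20.3% of all probes were called. Of these genes Sesn2, a stress-induced inhibitor of mTORC1, rose in all 3 comparisons, with probe ILMN_1229465 higher by 2.55 ± 0.25 (log2, limma adjusted p = 1.77e-05), at least 1.64-fold (limma adjusted p = 0.014) and 1.47 ± 0.25 (limma adjusted p = 0.00182) in these comparisons. The call of Sesn2 between Bcl2 control and control arrays was lost without Bcl2 control replicate 3 (1.07, limma adjusted p = 0.0689). Of its other probes, ILMN_2948945 rose in the first 2 comparisons and was not called in the third (1.07 ± 0.36, limma adjusted p = 0.0604), and ILMN_1219984 was called in none (0.69, 0.45 and 0.36). The genes that rose in the first comparison were Akt1s1, Ddit4, Sesn1, Sesn2, Tsc1 and Tsc2. All are known as negative regulators of mTORC1 or of growth upstream of it. Of the rest, Rheb, its activator, fell, and Mtor and Rptor were not called. Other probes of Sesn1 (ILMN_3059476, 0.39), Tsc1 (ILMN_2465589, -0.25) and Tsc2 (ILMN_3135566, 0.51) were not called there. On Bcl2-rescued against Bcl2 control arrays only Sesn1 and Sesn2 rose, and Rptor fell.

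Atp2a1, the SERCA pump of fast muscle and a target of sarcolipin, rose by 1.26 ± 0.22 (log2, limma adjusted p = 0.00164) on Bcl2-rescued against Bcl2 control arrays. It was at least 1.18-fold higher on Bcl2 control than on control arrays (limma adjusted p = 0.0244), a call lost without Bcl2 control replicate 1 or 2 or control replicate 2 (limma adjusted p from 0.0634 to 0.0975). Whrn, which encodes whirlin, a scaffold that like espin serves hair-cell stereocilia, averaged 11.90, 10.17, 8.60 and 8.30 on Bcl2-rescued, Bcl2 control, labelled deficient and control arrays. It rose by 1.73 ± 0.31 (limma adjusted p = 0.00228) on Bcl2-rescued against Bcl2 control arrays and by 1.87 ± 0.31 (limma adjusted p = 0.00427) on Bcl2 control against control arrays. Gdpd5, of the Gdpd3 family, rose by 1.74 ± 0.34 (limma adjusted p = 0.00367) and 1.25 ± 0.34 (limma adjusted p = 0.0485) in the same comparisons, the second lost without any 1 of 11 of the 12 pro-B arrays (limma adjusted p from 0.0514 to 0.154). Its relative Gdpd1 fell by -1.20 ± 0.25 (limma adjusted p = 0.00573) on Bcl2-rescued against Bcl2 control arrays, and all 3 probes of Gde1 fell on Bcl2-rescued against labelled deficient arrays. Gdpd1, Gde1, Clic4 and Pde4b lie outside the rule for named genes, as do the genes of the mTORC1 branch other than Sesn2. On Bcl2-rescued against Bcl2 control arrays Pde4b rose by 1.24 ± 0.28 (limma adjusted p = 0.00839), 2 of 3 probes of Clic4 fell, Pde4a, Pde4d and Pde7a were not called, and of the Dlx family only Dlx3 passed the filter and was not called.

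**Figure D4:**
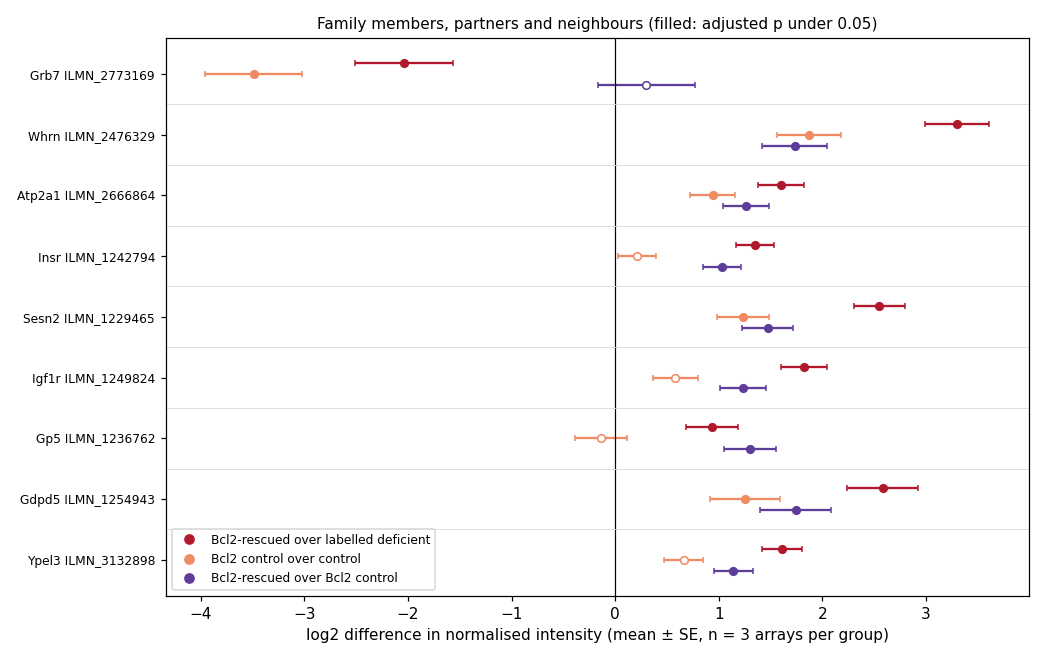
Log2 difference in normalised intensity (horizontal axis, mean ± SE, n = 3 arrays per group) of the named partners, family members and neighbours in 3 comparisons, filled where the limma adjusted p was under 0.05. Whrn, Atp2a1, Sesn2 and Gdpd5 rise in all 3 comparisons, Insr, Igf1r, Gp5 and Ypel3 are called higher in the 2 comparisons with Bcl2-rescued arrays and not on Bcl2 control against control arrays, and Grb7 falls to -3.49 there.

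Genomic neighbours were not used to choose the genes. Of the 20 genes nearest on each side, 12 had a probe and 7 genes with 10 probes passed the filter. On Bcl2-rescued against Bcl2 control arrays 2 of the 10 probes rose and 0 fell, 20% against the 20.3% of all probes called. Ypel3, which lies beside Gdpd3, rose by 1.14 ± 0.19 (log2, limma adjusted p = 0.0016) with probe ILMN_3132898, at means of 15.69 and 14.56, and its second probe ILMN_2453076 was not called (0.76 ± 0.44, limma adjusted p = 0.27). Gp5, a platelet glycoprotein gene beside Lrrc15 with leucine-rich repeats of its own, was at least 2.05-fold higher (limma adjusted p = 0.00329). Its call against labelled deficient arrays (0.93 ± 0.25, limma adjusted p = 0.0132) was lost without Bcl2-rescued replicate 2 (0.70, limma adjusted p = 0.0616). Of the same 10 probes, limma called 0 on Bcl2 control against control arrays, where 6.91% of all probes were called. On Bcl2-rescued against labelled deficient arrays 3 rose and 1 fell, 40% against 35.1% of all probes. A rule chosen after seeing the data skipped pseudogenes and noncoding genes. With it, 6 of 16 neighbour probes were called on Bcl2-rescued against Bcl2 control arrays, 37.5% against 20.3% of all probes. Of the 6, 5 were higher and 1 lower. The lower one was that of H2az1, a histone variant gene beside Ddit4l (-1.73 ± 0.22, limma adjusted p = 0.000219), and Ddc became a neighbour of Grb10. Its probes rose by 1.66 ± 0.21 (ILMN_2628647, limma adjusted p = 0.000198) and by at least 1.71-fold (ILMN_1260450, limma adjusted p = 0.000504) on Bcl2-rescued against Bcl2 control arrays. Ddc encodes the decarboxylase that makes dopamine and serotonin, and it shares an imprinted region with Grb10.

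The genes whose log2 profile over the 12 pro-B arrays was most like the mean of the 10 were named by Pearson correlation, as a description on the same arrays. Shisa5, an endoplasmic-reticulum protein linked to p53-dependent apoptosis, had r = 0.997, with means of 14.43, 12.26, 11.51 and 11.28 on Bcl2-rescued, Bcl2 control, labelled deficient and control arrays. Ddc had r = 0.992, with means of 6.58, 5.46, 5.20 and 5.01, of which the last 3 rest on arrays all below background and have no order. Pttg1ip, a binding protein of securin, had r = 0.991, with means of 14.39, 13.20, 12.65 and 12.58. Bcl2l11, which encodes Bim, a trigger of apoptosis that Bcl2 binds, had r = 0.990, with means of 13.79, 11.83, 11.19 and 10.79. Adap1, a regulator of the small GTPase Arf6, also had r = 0.990, with means of 9.86, 7.31, 6.18 and 5.96. The 12 points share 4 groups and were not independent of the choice of the 10 genes.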

How the data were processed

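Total RNA was extracted with the Rneasy Plus Micro kit and biotin-labelled with the Ambion MessageAmp kit, per the labels' protocols. No source used here names the scanner software. The authors deposited, for each probe and array, a linear intensity without normalisation between arrays, with a detection fraction beside it, read here as 1 minus the detection p. Judged by the values, with 33.2 to 39.9% of probes below 0, the pro-B arrays came background-subtracted, and the DN3 arrays did not. The score that the authors deposited in the series matrix equals the linear intensity centred and divided by the SD over the 15 arrays. Its direction is that of the intensity, it has no log step, and it served as an alternative only.

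The 12 pro-B arrays were normalised together with limma 3.58.1 in R 4.3.3 (neqc: background by detection p, offset 16, quantile, log2), and all 15 together for DN3. Probes with detection p under 0.05 on at least 3 arrays were kept. One mean per group was fitted with lmFit and eBayes, with Benjamini-Hochberg adjustment over all kept probes. A probe below background on every array of a group has only a bound there, given as at least N-fold. Of 45263 probes, 34874 have 1 gene symbol in the platform table, 18 have several and 10371 are not listed there. Replicate correlations were 0.905 to 0.984 among control arrays and 0.981 to 0.991 in the other pro-B groups, and at most 0.703% of signals were equal between any 2 arrays. With 3 arrays per group, array number sets the precision.

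The members and the lists of partners and markers were chosen with earlier results of these data known. Named partners were those called in Bcl2-rescued over Bcl2 control or Bcl2 control over control, at most 8 by smallest p, and named neighbours likewise, at most 6. The 5 genes most like the members were taken by Pearson correlation. Arrays with the same replicate number deviated together within each background (correlations of 0.249 to 0.396 between Bcl2-rescued and Bcl2 control arrays, 0.329 to 0.348 between labelled deficient and control arrays). Between backgrounds these correlations were mixed. They ran from -0.204 (Bcl2 control and labelled deficient, replicate 2) to 0.314 (Bcl2 control and control, replicate 3). The replicate number was fitted as a block within backgrounds, and as a block over all pro-B groups, as alternatives. Other alternatives changed the offset, the background correction, the normalisation, the filter, the probe rule, array weights, the slide as a block and single arrays. Promoters came from RefSeq (GRCm38.p6). The fit was tested on simulated data.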

Additional observations from a re-analysis of the deposited data

Results flagged for a closer look

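For several genes the difference between Bcl2-rescued and Bcl2 control arrays was not the same as that between labelled deficient and control arrays. The excess of the first over the second, the interaction, is on the log2 scale with its SE. For Sln, Espn, Ddit4l, Pde4c ILMN_1255758, both Smagp probes, Sesn2 and Ddc at least 1 group was below background on all 3 arrays, so the fitted value depends on the background offset and is neither a measured size nor a bound. Among the members, whose values chose them and which therefore have no test, it was 4.24 ± 0.59 for Sln, 3.93 ± 0.32 for Espn, 3.83 ± 0.44 for Grb10 ILMN_2518412 and 3.78 ± 0.43 for Lrrc15. It was 3.13 ± 0.48 for Ddit4l, 3.08 ± 0.52 for Dlx1 and 2.01 ± 0.34 for Pde4c ILMN_1255758. The Smagp probes gave 1.75 ± 0.44 (ILMN_1247198) and 1.71 ± 0.39 (ILMN_3130403), although Smagp was already above background on labelled deficient arrays. Bcl11a itself went against its label in the second of these differences by probe ILMN_2712044. Its other kept probe, ILMN_1257463, was not called there (-0.25 ± 0.44, limma adjusted p = 0.875).

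Of the partners, Insr had an interaction of 1.14 ± 0.25 (limma adjusted p = 0.0171), Igf1r ILMN_1249824 of 1.24 ± 0.32 (limma adjusted p = 0.0334) and Sesn2 ILMN_1229465 of 1.32 ± 0.36 (limma adjusted p = 0.0462). The Insr call was lost without Bcl2-rescued replicate 1 (1.06, limma adjusted p = 0.055) or 3 (1.11, limma adjusted p = 0.0517). The Igf1r call was lost without any 1 of 9 arrays and the Sesn2 call without any 1 of 8 (limma adjusted p up to 0.0911 and 0.12). The genes picked for their likeness to the members gave 1.95 ± 0.23 for Shisa5, 0.93 ± 0.23 for Ddc, 1.12 ± 0.22 for Pttg1ip, 1.55 ± 0.31 for Bcl2l11 and 2.33 ± 0.29 for Adap1, as a description. These were picked on the same arrays.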

How the results depend on the processing

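Counts of called probes are given in the order Bcl2-rescued over labelled deficient, Bcl2 control over control, Bcl2-rescued over Bcl2 control, labelled deficient over control, interaction and DN3 over control. Leaving out 1 array at a time gave 12 to 12, 3 to 5, 11 to 12, 0 to 0, 7 to 12 and 2 to 4 of the 13 member probes, the highest interaction count (12) without control replicate 3 and the 5 without labelled deficient replicate 2. It gave 19 to 35, 3 to 12, 11 to 22, 0 to 0, 0 to 8 and 12 to 27 partner probes, 3 to 6, 0 to 1, 2 to 4, 0 to 0, 0 to 3 and 1 to 3 neighbour probes, and 4616 to 9201, 571 to 3422, 2381 to 6630, 2 to 7, 831 to 3002 and 6584 to 10792 of all probes (6216, 1224, 3603, 4, 1399 and 8098 with every array). Over the other alternatives the counts of all probes ran over 2908 to 9522, 0 to 7470, 733 to 7363, 0 to 5725, 0 to 5987 and 4371 to 17413. Member counts that moved by over 1.5 times were Bcl2 control over control, 6 within slide 2 and 0 with the deposited scores, Bcl2-rescued over Bcl2 control, 7 within slide 1, labelled deficient over control, 4 within slide 2, the interaction, 3 within slide 1 and 0 with the scores, and DN3 over control, 6 with median scaling, 8 with DN3 normalised apart, 6 with array weights and 0 with the scores. Member probes above background per array at detection p under 0.01 averaged 6.67 on Bcl2 control and 5.67 on labelled deficient arrays. Partner counts moved to 3 with median scaling, 1 with only the groups compared, 16 with array weights, 0 and 19 within slides 1 and 2 and 0 with the scores for Bcl2 control over control, to 25 with only the groups compared, 26 with weights, 1 within slide 1 and 7 with the scores for Bcl2-rescued over Bcl2 control, to 15 with the scores for Bcl2-rescued over labelled deficient, to 18 within slide 2 for labelled deficient over control, to 2 with no filter, 13 with weights, 0 and 18 within slides and 0 with the scores for the interaction, and to 55 normalised apart, 11 with only the groups compared and 30 with weights for DN3. Neighbour counts under the protein-coding rule were 7, 6, 3 and 5 for Bcl2-rescued over labelled deficient, Bcl2-rescued over Bcl2 control, the interaction and DN3. All other alternatives kept the nearest gene on each side, and the neighbour counts that follow are under that rule. For Bcl2 control over control they were 1 with offset 50, no background correction or the slide as a block. For Bcl2-rescued over Bcl2 control they were 4 with median scaling, 6 with only the groups compared or with weights, 0 and 5 within slides, 4 with the replicate block within backgrounds and 1 with the scores. They were 2 within slide 2 for labelled deficient over control and 2 with the scores for Bcl2-rescued over labelled deficient. For the interaction they were 1 with offset 50, no background correction, the other normalization set, detection p under 0.01, 1 probe per gene or either replicate block, 2 with median scaling, 3 with weights or the slide as a block and 4 within slide 2. For DN3 they were 2 with median scaling or no filter, 10 normalised apart, 3 with weights and 0 with the scores. The replicate block moved no other of these counts by over 1.5 times, and its member counts stand beside the unpaired ones.

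The pro-B values of the members, 1631 recomputed, moved by less than their spread in 1510 cases, by more in 121, and no called value changed sign. DN3 differences that changed sign were, normalised apart, -0.35 for Espn, -0.5 for Whrn, -0.79 for Igf1r, -0.09 for Shisa5, -0.36 for Ddc and -1.6 for Bcl2l11, and with median scaling 0.49 for Adap1. The DN3 median of all probes was -0.10, 0.46 with median scaling and -1.88 normalised apart, so DN3 values of the named genes are relative to that shift. Median scaling moved the medians of Bcl2 control over control to -0.20, labelled deficient over control to -0.17 and the interaction to 0.27. Within a slide fewer arrays enter, and the cause of the other moves was not tested. Control replicate 3, the dimmest array, had the fewest probes above background (11473), which limits what low signals there can show.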

Other observations

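On DN3 arrays the partners of the 10 genes moved in both directions, with 8 probes higher and 11 lower of the 56 kept, 33.9% against 43% of all probes. Grb7 was lower by -4.86 ± 0.46 (log2, limma adjusted p = 1.17e-06), the same direction as on Bcl2 control against control arrays. Slide, tissue, strain and genotype of the DN3 arrays cannot be told apart from cell type.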
